A study of Mus musculus with 4 samples.

Results

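Chemokines are small secreted proteins that guide moving cells, and chemokine receptors are the membrane proteins that read them. The genes described here are all those named as a ligand of the Ccl, Cxcl, Cx3cl or Xcl type, as a receptor of the Ccr, Cxcr, Cx3cr or Xcr type, or as an atypical receptor (Ackr), 60 of the 55228 genes in the count table. They were picked by a rule on names that uses no measured value, but with earlier results of these data known. The 31 that had at least 20 counts over the 4 libraries together form the set described here, and 25 of these passed the filter on low counts and were tested. RNA of rib cartilage cells was sequenced at E17.5 in C57BL/6 mice, in 2 Trim28 knockout (Trim28 KO) and 2 wild-type (WT) libraries. Zinc finger proteins recruit TRIM28, a corepressor, to DNA, where it helps to form silent chromatin. The labels give no treatment, and name no Cre driver, floxed allele, litter, sex or number of embryos behind a library, so how the knockout was made, and in which cells, is not known here.

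A chemokine binds sugar chains of the matrix and forms a gradient, and a cell with the matching receptor moves along it. Signalling receptors pass the message on through inhibitory G proteins, arrestins and receptor kinases. Atypical receptors take up the ligand without a G protein signal and lower its free amount. In developing bone and marrow, CXCL12 from stromal cells holds blood progenitors through CXCR4, and CC chemokines draw monocytes and the precursors of osteoclasts, the cells that resorb cartilage and bone.

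The ligands are classed by the spacing of their first pair of cysteines: adjacent in CC chemokines, parted by 1 residue in CXC chemokines and by 3 in the CX3C chemokine. The coding stretch around that pair is shown for the 8 ligand genes that passed the test between genotypes, because the spacing is what separates the classes used below. The stretches run 5′ to 3′ in the coding strand, were taken from GENCODE release M21 transcripts on GRCm38, and have the codons of the pair in capitals.
Cxcl12: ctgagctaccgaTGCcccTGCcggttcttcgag
Cxcl14: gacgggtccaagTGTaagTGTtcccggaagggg
Cxcl16: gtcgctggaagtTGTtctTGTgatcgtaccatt
Cxcl1: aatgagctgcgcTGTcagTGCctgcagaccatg
Ccl9: gactcttcagatTGCTGCctgtcctataac
Ccl12: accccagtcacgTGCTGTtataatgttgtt
Ccl4: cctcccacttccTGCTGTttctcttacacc
Cx3cl1: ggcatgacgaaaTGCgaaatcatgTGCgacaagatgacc
Each pair was located by searching the coding transcript for the spacing that the gene's name implies. It was found in 37 ligand genes, 23 of the CC, 13 of the CXC and 1 of the CX3C class. Such a search cannot return a mismatch, so it does not test the classes, which were taken from the names.

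Counts summed to 18616896 in Trim28 KO 1, 19903917 in Trim28 KO 2, 20082123 in WT 1 and 19493435 in WT 2, and levels are given as CPM, counts divided by a TMM-scaled library size and set to 1e6. Trim28 stood at 51.1 and 54.5 CPM in Trim28 KO, against 225 and 186 CPM in WT (a log2 difference of -1.96 with an SE of 0.20, from 2 libraries a genotype), which matched the labels. Col2a1, the main collagen of cartilage, lay between 55512 and 79631 CPM in the 4 libraries. In bulk RNA, more cells of a type and more RNA per cell cannot be told apart. Nothing in the labels ties a library to its own embryo. The p-values therefore measure only the spread between these samples, which may be technical.

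Of the 25 tested genes, 7 were higher and 5 lower in Trim28 KO in edgeR's quasi-likelihood test with a Benjamini-Hochberg adjusted p under 0.05, and 13 did not pass. The 12 called genes are 48% of those tested, where 17.4% of all 16639 tested genes were called (8.64% higher and 8.77% lower). Changes of opposite sign within the family left its total nearly level: all 60 genes together summed to 298 and 247 CPM in Trim28 KO, against 268 and 267 CPM in WT. That total was mostly Ackr3, Cxcl14 and Cxcl12, which held 61.6% and 66.3% of the family counts in Trim28 KO, against 74.2% and 73.3% in WT. By class, the mean sum in Trim28 KO was 0.784 times that in WT for ligands, 1.93 times for signalling receptors and 1.37 times for atypical receptors. The sum of signalling receptors, 27.1 CPM in Trim28 KO and 14.1 CPM in WT, held 15.1 and 3.95 CPM of Cx3cr1. That of atypical receptors, 109 CPM in Trim28 KO and 79.6 CPM in WT, held 104 and 65.9 CPM of Ackr3, while Ackr4 fell. The median log2 fold change of the tested genes was 0.60, against -0.02 over all genes tested. The median of the family genes moved with the libraries and the filter. It was 0.116 without Trim28 KO 1 and 0.770 without Trim28 KO 2. With the stricter filter it was -0.114 (8 genes), and with no filter -0.00166 (54 genes). The genotypes did not overlap in 19 of the 25 genes (76%), where 58.0% of all tested genes did not overlap. Trim28 KO 1 was the higher of the Trim28 KO libraries in 20 of the 25 genes, against 46.8% of all tested genes. With either Trim28 KO library left out, fewer of the 25 genes were called, from fits with 1 library left in that genotype. Calls over all genes with 1 library left out are given at the end.

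**Figure D1:**
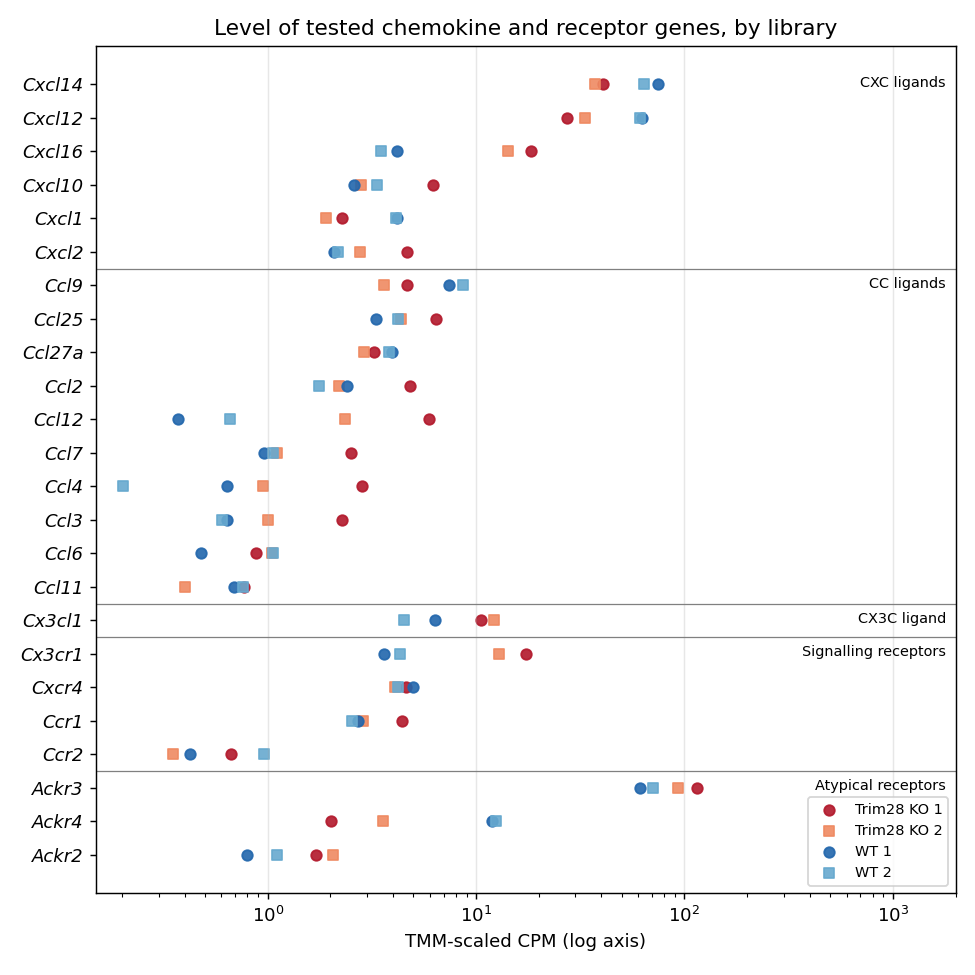
Levels of the tested genes named in the text in each library (TMM-scaled CPM, log axis; 1 point per library, Trim28 KO in red tones and WT in blue tones), ordered by class and level. Cxcl14, Cxcl12 and Ackr3 lie to the right of the other genes, and for most genes the Trim28 KO 1 point stands to the right of the Trim28 KO 2 point.

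The ligand genes with the most counts in every library, Cxcl14 and Cxcl12, were lower in Trim28 KO. Cxcl12, the stromal ligand of CXCR4 and of the scavenging receptor ACKR3, lies on chromosome 6 from 117168535 to 117181367 of GRCm38, plus strand. It stood at 27.4 and 33.4 CPM in Trim28 KO libraries 1 and 2, against 62.6 and 61.3 CPM in WT 1 and 2. The genotypes were well apart and the WT libraries nearly equal, and Cxcl12 fell 2.04-fold (log2 fold change of -1.03 ± 0.19, adjusted p = 4.06e-04). Cxcl14, a constitutively made chemokine of epithelia and stroma (chromosome 13, 56288643 to 56296551, minus strand), had 40.8 and 37.3 CPM in Trim28 KO, against 75.1 and 63.8 CPM in WT. It fell 1.78-fold (-0.83 ± 0.19, adjusted p = 0.00278), and both Trim28 KO libraries lay below both WT libraries. Together the pair summed to 69.5 ± 1.82 CPM in Trim28 KO and 131 ± 8.83 CPM in WT (SD, n = 2 each). They made up 46.5% and 56.1% of all ligand counts in Trim28 KO, against 76.3% and 74.6% in WT. Without Trim28 KO 2 the fall of Cxcl14 did not pass the test (adjusted p = 0.0621).

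Among the other CXC ligands, Cxcl16 rose. CXCL16 is made as a membrane protein with a chemokine head, released by ADAM10, and is the ligand of CXCR6. The gene (chromosome 11, 70453983 to 70459984, minus strand) had 18.4 and 14.2 CPM in Trim28 KO, against 4.20 and 3.49 CPM in WT. Every Trim28 KO library lay over 3 times above every WT library, and the rise was 4.24-fold (2.08 ± 0.24, adjusted p = 9.53e-07). It passed the test under each of the 11 alternatives tried, with log2 fold changes from 1.89 to 2.26. Antisense to it, Zmynd15 shares 18.3% of the exon bases of Cxcl16, and fragments that lay over exons of both genes were not counted. Cxcr6, the receptor, had 3 counts in Trim28 KO 1, 0 in Trim28 KO 2, 0 in WT 1 and 6 in WT 2, and did not pass the filter on low counts.

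The neutrophil-attracting pair Cxcl1 and Cxcl2, neighbours on chromosome 5 that both act on CXCR2, gave values of opposite sign. Cxcl1 had 2.27 and 1.91 CPM in Trim28 KO, against 4.20 and 4.14 CPM in WT. It fell 1.996-fold (-0.997 ± 0.321, adjusted p = 0.0334). The call was lost when any 1 of the 4 libraries was left out, where the adjusted p of Cxcl1 ran from 0.0961 to 0.183. Cxcl2 had 4.69 and 2.76 CPM in Trim28 KO, against 2.07 and 2.17 CPM in WT, and was not called (0.81 ± 0.34, adjusted p = 0.113). Neither gene's genotypes overlapped, so the order of the libraries was reversed between the neighbours. The stretch from -130 to -1 of the RefSeq start is shown for both, because NF-kB sites just before the start are a known feature of these genes. It runs 5′ to 3′ on the plus strand of GRCm38.p6, chr5:90891115-90891244 for Cxcl1 and chr5:90903769-90903898 for Cxcl2, with matches on either strand to the motif GGG, any 2 bases and TTTCC in capitals.
Cxcl1: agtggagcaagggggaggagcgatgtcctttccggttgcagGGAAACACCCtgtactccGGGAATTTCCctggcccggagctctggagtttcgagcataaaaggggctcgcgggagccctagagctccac
Cxcl2: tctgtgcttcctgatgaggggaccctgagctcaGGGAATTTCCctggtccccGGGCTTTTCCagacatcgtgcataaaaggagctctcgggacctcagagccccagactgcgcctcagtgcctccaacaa
Both stretches hold 2 matches, starting at -89 (minus strand) and -71 in Cxcl1 and at -97 and -78 in Cxcl2. The 10 letters GGGAATTTCC stand in both. The motif occurs in 1.63% of 32851 RefSeq promoters of 300 bases, and of the 23 described genes with such a promoter only Cxcl1, Cxcl2 and Ccl9 held it. A match is a run of letters, not a measured binding site.

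Cxcl10, an interferon-induced ligand of CXCR3, had 6.23 and 2.81 CPM in Trim28 KO, against 2.60 and 3.33 CPM in WT. Trim28 KO 2 lay between the WT libraries, and the gene was not called (0.60 ± 0.35, adjusted p = 0.271). Its promoter held the interferon response motif (GAAA, any 2 bases and GAAA, on either strand) at -213, and that of Cxcl14 held it at -172, a motif found in 3.44% of all promoters. Cxcl9, another interferon-induced ligand, had 11 counts in Trim28 KO and 14 in WT, or 0.771 times as many after scaling. The exact 95% interval given the sum of both was 0.317 to 1.83, and intervals of this kind cover counting error only.

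Cx3cl1 and its sole receptor gene Cx3cr1 both rose. CX3CL1, or fractalkine, sits on the surface of endothelial, epithelial and nerve cells and is shed as a soluble ligand. Its gene (chromosome 8, 94772009 to 94782427, plus strand) had 10.6 and 12.2 CPM in Trim28 KO, against 6.32 and 4.50 CPM in WT. The rise was 2.10-fold (1.07 ± 0.24, adjusted p = 0.00277), and of the 7 genes called higher it was the 1 with the larger value in Trim28 KO 2. Cx3cr1, a receptor of monocytes, macrophages and microglia (chromosome 9, 119901616 to 120069879, minus strand), had 17.4 and 12.9 CPM in Trim28 KO, against 3.61 and 4.29 CPM in WT. Both Trim28 KO libraries were over 3 times above both WT libraries, a rise of 3.83-fold (1.94 ± 0.24, adjusted p = 3.54e-06). Without Trim28 KO 2, Cx3cl1 did not pass the test (adjusted p = 0.0539), while Cx3cr1 was called under all 11 alternatives.

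**Figure D2:**
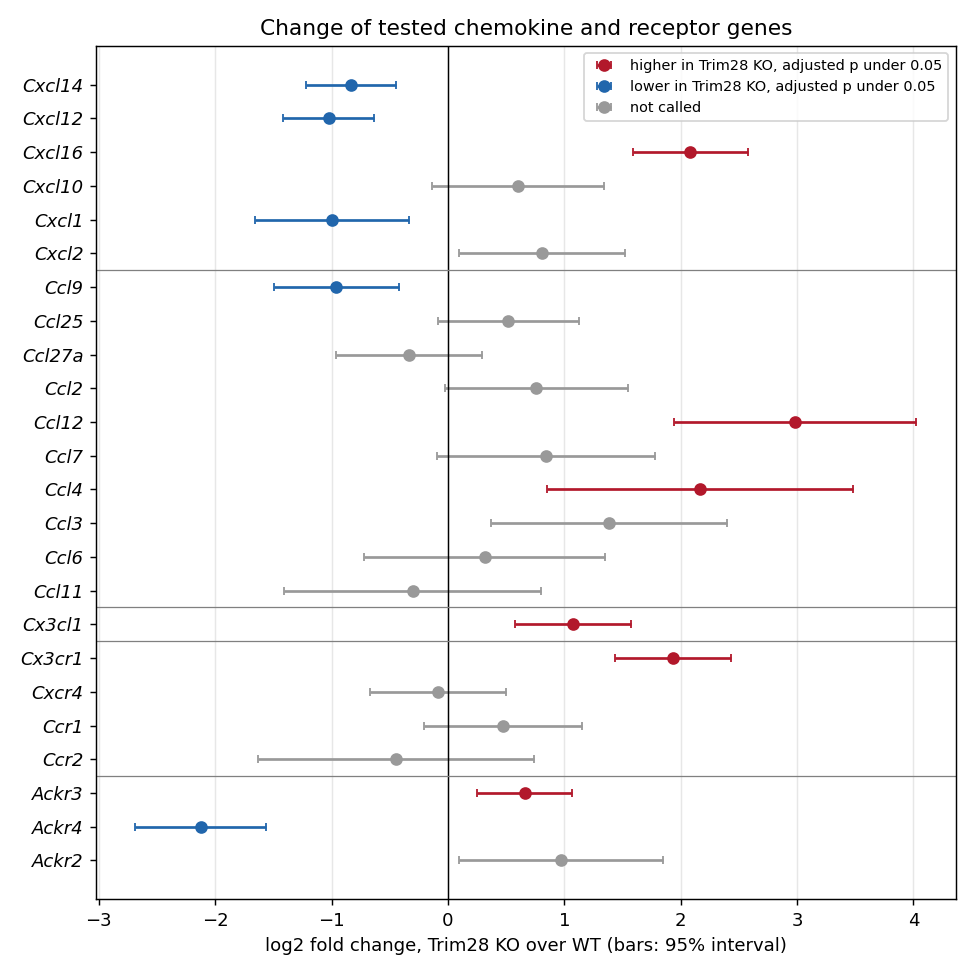
Log2 fold change of the tested genes named in the text, Trim28 KO over WT, with its 95% interval (points red for genes called higher, blue for genes called lower, grey for genes not called). Ccl12, at 2.99, is the farthest to the right and Ackr4, at -2.12, the farthest to the left.

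The CC ligands that draw monocytes form a run on chromosome 11 with starts between 82.04 and 82.18 Mb, and its genes differed in how far they moved. Ccl12, a mouse ligand of CCR2, had 5.92 and 2.36 CPM in Trim28 KO, against 0.37 and 0.66 CPM in WT (115 and 47 counts against 7 and 13). It rose 7.92-fold (2.99 ± 0.49, adjusted p = 3.44e-04), the largest log2 fold change of the 25 genes. It was called under all 10 alternatives that tested it, at 2.19 without Trim28 KO 1 and 3.51 without Trim28 KO 2. Its neighbour Ccl2, the main monocyte attractant, had 4.84 and 2.21 CPM in Trim28 KO, against 2.39 and 1.77 CPM in WT. Here Trim28 KO 2 fell between the WT libraries and the gene was not called (0.76 ± 0.38, adjusted p = 0.182). Ccl7, a further monocyte attractant, had 2.52 and 1.10 CPM in Trim28 KO, against 0.96 and 1.06 CPM in WT (0.84 ± 0.45, adjusted p = 0.220). The eosinophil attractant Ccl11 had 0.77 and 0.40 CPM in Trim28 KO, against 0.69 and 0.76 CPM in WT (-0.30 ± 0.54, adjusted p = 0.755). Ccl8 had 4 counts in all and Ccl1 none. For Ccl2 and Ccl7 the difference was carried by Trim28 KO 1: without it, their log2 fold changes were 0.10 and 0.14.

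A second run of CC genes on the same chromosome, with starts between 83.53 and 83.66 Mb, held a fall and a rise. Ccl9, which osteoclasts and myeloid cells secrete and which acts through CCR1, had 4.69 and 3.61 CPM in Trim28 KO, against 7.43 and 8.69 CPM in WT. The genotypes did not overlap, and Ccl9 fell 1.94-fold (-0.96 ± 0.26, adjusted p = 0.0120). That call was lost without Trim28 KO 2 (adjusted p = 0.138) and without WT 2 (adjusted p = 0.0902). Ccl4, a macrophage inflammatory protein, had 2.83 and 0.95 CPM in Trim28 KO, against 0.64 and 0.20 CPM in WT. It rose 4.49-fold (2.17 ± 0.62, adjusted p = 0.0244) on 90 counts in all. Without Trim28 KO 1 the value was 1.19 (adjusted p = 0.434) and without WT 2 it was 1.59 (adjusted p = 0.0526), while without WT 1 it was 3.21. Ccl3, its close relative and a ligand of CCR1, had 2.27 and 1.004 CPM in Trim28 KO, against 0.64 and 0.61 CPM in WT. It missed the threshold (1.38 ± 0.49, adjusted p = 0.0540) and passed it once Trim28 KO 2 was left out (1.86, with the adjusted p of Ccl3 at 0.0406), and also in the fits with unfiltered genes and with library size alone. Ccl6 had 0.88 and 1.05 CPM in Trim28 KO, against 0.48 and 1.06 CPM in WT, so the genotypes overlapped (0.32 ± 0.50, adjusted p = 0.724).

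Of the other CC ligands described, Ccl25 and Ccl27a were tested and not called, and Ccl21a, Ccl24 and Ccl28 did not pass the filter on low counts. Ccl25, which draws lymphocytes to thymus and small intestine, had 6.44 and 4.37 CPM in Trim28 KO, against 3.29 and 4.24 CPM in WT (0.52 ± 0.29, adjusted p = 0.247). Ccl27a, a ligand of CCR10 known from skin, had 3.24 and 2.91 CPM in Trim28 KO, against 3.93 and 3.84 CPM in WT (-0.34 ± 0.30, adjusted p = 0.4997). Near-identical copies of it and of Ccl21a exist on chromosome 4, where reads placed on several copies may go uncounted, so both values are uncertain. Ccl21a, which guides lymphocytes and dendritic cells, had 9 counts in Trim28 KO and 20 in WT (ratio of 0.442, interval 0.177 to 1.01). Ccl24 had 11 counts in Trim28 KO and 11 in WT (ratio of 0.982, interval 0.386 to 2.50), and Ccl28 had 9 in Trim28 KO and 11 in WT (ratio of 0.803, interval 0.294 to 2.13).

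**Figure D3:**
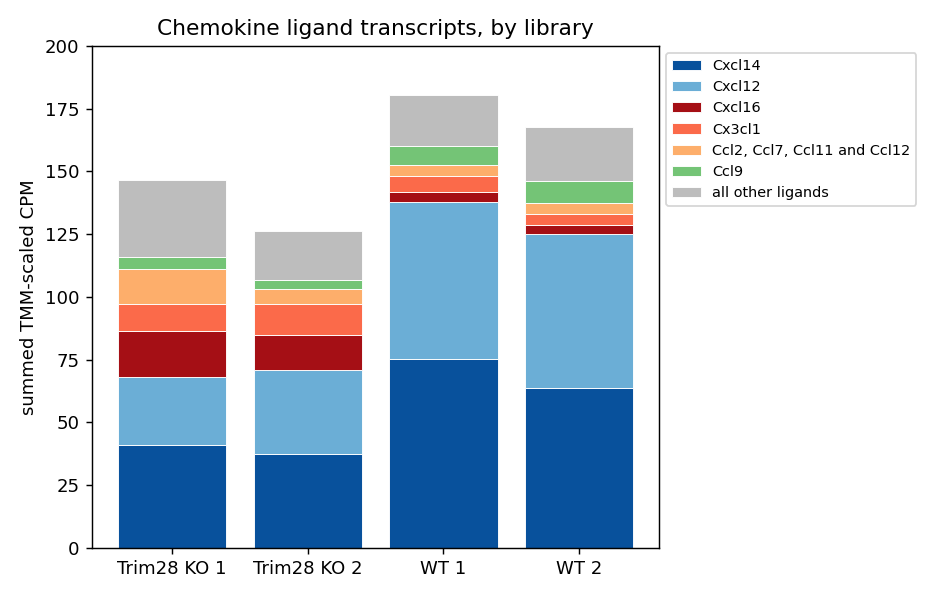
Summed CPM of all ligand genes in each library, stacked by gene. The Trim28 KO bars reach 147 and 126 CPM and the WT bars 180 and 168 CPM; Cxcl14 and Cxcl12 are smaller in Trim28 KO and the Cxcl16, Cx3cl1 and Ccl2-to-Ccl12 segments larger.

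Ligand transcripts other than Cxcl12 and Cxcl14 together stood at 78.5 and 55.3 CPM in Trim28 KO, against 42.6 and 42.5 CPM in WT, and all ligands together at 147 and 126 CPM in Trim28 KO, against 180 and 168 CPM in WT. These sums are descriptions and were not tested.

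Among the signalling receptors, Cx3cr1 rose as given above, and Cxcr4, Ccr1 and Ccr2 did not pass the test. Cxcr4, which reads CXCL12, had 4.63 and 4.06 CPM in Trim28 KO, against 4.99 and 4.24 CPM in WT. The libraries of both genotypes were interleaved, and the 95% interval of its log2 fold change ran from -0.67 to 0.49 (-0.09 ± 0.28, adjusted p = 0.875). Ccr1, the receptor of CCL9 and CCL3 on myeloid cells and osteoclasts, had 4.43 and 2.86 CPM in Trim28 KO, against 2.71 and 2.53 CPM in WT (0.48 ± 0.33, adjusted p = 0.356, interval -0.20 to 1.16). Ccr2, the receptor of CCL2 and CCL12 on inflammatory monocytes, had 0.67 and 0.35 CPM in Trim28 KO, against 0.42 and 0.96 CPM in WT (-0.45 ± 0.57, adjusted p = 0.655). It stayed under 1 CPM in every library, beside the rise of its ligand Ccl12. Ccr10 had 10 counts in Trim28 KO and 11 in WT (ratio of 0.892, interval 0.340 to 2.31).

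The atypical receptors held the gene with the most counts over the 4 libraries, Ackr3, and the largest fall among the 25 tested genes, that of Ackr4. Ackr3, which takes up CXCL12 and is also known as CXCR7 (chromosome 1, 90203980 to 90216751, plus strand), had 115 and 93.0 CPM in Trim28 KO, against 61.2 and 70.7 CPM in WT. It rose 1.58-fold (0.66 ± 0.20, adjusted p = 0.0225), and the call was lost without Trim28 KO 1 (adjusted p = 0.241) or WT 1 (adjusted p = 0.0902). Set against its ligand, the Ackr3 CPM was 4.20 and 2.78 times the Cxcl12 CPM in Trim28 KO, against 0.98 and 1.15 times in WT, a ratio of counts not corrected for gene length. Ackr4, which scavenges CCL19, CCL21 and CCL25 (chromosome 9, 104084157 to 104126933, minus strand), had 2.01 and 3.56 CPM in Trim28 KO, against 11.9 and 12.4 CPM in WT. Every WT library was over 3 times above every Trim28 KO library, and Ackr4 fell 4.36-fold (-2.12 ± 0.27, adjusted p = 5.27e-06), a call kept under all 11 alternatives with values from -2.59 to -1.76. Acad11, on the other strand, shares 8.9% of its exon bases. Ackr2, which scavenges inflammatory CC chemokines, had 1.70 and 2.06 CPM in Trim28 KO, against 0.80 and 1.11 CPM in WT, and was not called (0.97 ± 0.42, adjusted p = 0.122). Ackr1, a chemokine-binding protein of red cells and venules, had 4 and 0 counts in Trim28 KO, against 15 and 5 in WT (ratio of the sums 0.196, interval 0.0488 to 0.586). It did not pass the filter on low counts, and in the fit without that filter Ackr1 was not called (adjusted p = 0.0745). Cadm3 shares 25.7% of its exon bases.

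**Figure D4:**
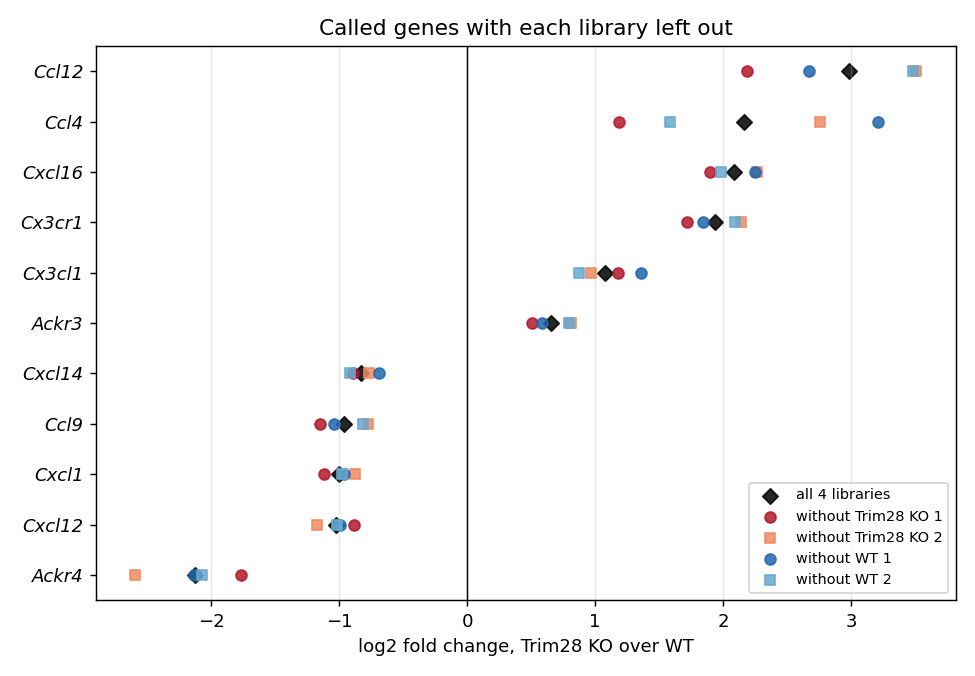
Log2 fold change of the called genes named in the text with all 4 libraries (black diamonds) and with each library left out (coloured points, Trim28 KO in red tones and WT in blue tones). All points of a gene stay on the same side of 0; the spread is widest for Ccl4 (1.19 to 3.21) and Ccl12 (2.19 to 3.51).

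Levels can be set beside each other between genes only per length, as CPM per kilobase of exon. On that scale the highest mean levels in Trim28 KO were Ackr3 (31.1), Cxcl14 (21.4), Ccl12 (7.71), Cxcl16 (5.39) and Cxcl12 (3.72). In WT the order was Cxcl14 (38.02), Ackr3 (19.7), Cxcl12 (7.58), Ccl9 (2.65) and Cxcr4 (2.55). Ackr3 and Cxcl14 thus led in both genotypes, and Ccl12 had rank 3 of the 31 genes in Trim28 KO and rank 15 in WT. Of the neighbours in the Trim28 KO order, Ccl12 ranged from 4.39 to 11.03 over the Trim28 KO libraries and Cxcl16 from 4.70 to 6.08, so their order is within the spread.

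The remaining 29 genes of the family had fewer than 20 counts in all, and 6 of them none. Just inside that limit were Ccl24 (22), Ccr10 (21) and Ccl28 (20), and just outside it Cxcr5 (13), Cxcr2 (12) and Ccl27b (10). For a gene with no count, a limit of 3 counts per library corresponds to 0.151 to 0.159 CPM. All 12 counts of Cxcr2, the receptor of CXCL1 and CXCL2 on neutrophils, lay in WT 2. In the fit without a filter, which tested every gene with a count, Cxcr2 (adjusted p = 0.0204) and Ccl27b (adjusted p = 0.0426) were called lower and the other 21 genes under 20 counts were not called. The summed level of 14 neutrophil markers stood apart in the same library, at 3.45 and 2.36 CPM in Trim28 KO, against 5.15 CPM in WT 1 and 32.1 CPM in WT 2. Among its defining markers, S100a8 had 2 and 2 counts in Trim28 KO, against 11 and 99 in WT, and was not called (adjusted p = 0.154). S100a9 was not called either (adjusted p = 0.381). Mpo, with 3 and 5 counts in Trim28 KO, against 11 and 41 in WT, was called lower, a call not kept under every alternative. Of the 7 neutrophil markers tested, 3 fell (42.9%, against 8.77% of all tested genes) and none rose, and their part in the values of Cxcl1 was not tested.

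The family's partners in binding and signalling also moved both ways. Of 41 tested genes on a list of such partners, 12 rose (29.3%, against 8.64% of all tested genes), 5 fell (12.2%, against 8.77%) and 24 did not pass, with a median log2 fold change of 0.10, against -0.02 over all genes tested. Both syndecan genes on the list, whose products carry heparan sulfate that binds chemokines, rose, Sdc4 by 0.83 ± 0.21 (adjusted p = 0.00764) and Sdc1 by 0.73 ± 0.22 (adjusted p = 0.0208), as did Ext1 (0.58 ± 0.19), which builds the heparan sulfate chain. Mif, a cytokine that can act on CXCR2 and CXCR4, stood at 147 and 135 CPM in Trim28 KO, against 76.4 and 87.0 CPM in WT (0.79 ± 0.20, adjusted p = 0.00608), and its receptor chain Cd74 rose by 1.43 ± 0.35. Cmklr1, the receptor of the attractant chemerin, rose by 0.97 ± 0.19. Pf4, a CXC chemokine gene whose name falls outside the Cxcl pattern, had 17.7 and 9.33 CPM in Trim28 KO, against 4.83 and 6.16 CPM in WT (1.30 ± 0.28, adjusted p = 0.00475).

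Inside the cell, arrestins were of opposite sign. Arrb1 fell by 1.51 ± 0.21 on the log2 scale (adjusted p = 1.34e-05) and Arrb2 rose by 0.74 ± 0.21 (adjusted p = 0.0170). Both encode beta-arrestins, which bind activated receptors and end their G protein signal. The G protein gamma subunit gene Gng2 (-1.14 ± 0.19), the receptor kinase gene Grk3 (-0.88 ± 0.24), Elmo1 (-0.64 ± 0.20), whose product works with DOCK proteins in migration, and the kinase gene Jak2 (-0.55 ± 0.19) fell. Rgs1 (2.08 ± 0.45) and Rgs2 (1.16 ± 0.19), which shorten G protein signals, and Vav1 (1.19 ± 0.30) and Dock2 (0.99 ± 0.32), which drive migration of blood cells, rose. Gnai2, the main inhibitory G protein of leukocytes, was not called (0.46 ± 0.22, adjusted p = 0.158), nor were the chemerin-binding Ccrl2 (0.59 ± 0.27, adjusted p = 0.151), the integrin gene Itgal (0.63 ± 0.33, adjusted p = 0.204) and the shedding protease gene Adam17 (0.36 ± 0.19, adjusted p = 0.213). Ppbp, another CXC chemokine gene outside the name pattern, had 21 counts in all, and the receptor-like Ccr1l1 had none. Only Gng2, Arrb1, Rgs2 and Cmklr1 of the 17 were called under every alternative, and fewer of the 17 were called without Trim28 KO 1.

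Of 35 tested inflammatory cytokine and NF-kB target genes, 1 rose, 4 fell and 30 did not pass, a share of 14.3% called, near the background of 17.4%. Icam1, the adhesion molecule that leukocyte integrins bind, rose by 0.58 ± 0.19 (adjusted p = 0.0389). Its counterpart Vcam1 fell to 8.91 and 6.42 CPM in Trim28 KO, against 16.5 and 18.5 CPM in WT (-1.19 ± 0.22, adjusted p = 4.42e-04). Ptgs2, the inducible prostaglandin synthase (-1.09 ± 0.21, adjusted p = 5.50e-04), Tnfaip2 (-0.95 ± 0.21) and Birc3 (-0.74 ± 0.21) also fell. Of the genes not called, Irf1, a transcription factor of interferon responses, stood at -0.50 ± 0.18 (adjusted p = 0.0632), and Cebpd (0.65 ± 0.24, adjusted p = 0.0642) and Tlr2 (0.57 ± 0.21, adjusted p = 0.0656) did not pass either. Of the 5 calls, Vcam1 and Ptgs2 held under every alternative.

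Markers of cells that carry these ligands and receptors moved with the genotypes. Of 21 tested macrophage markers (22 listed), 12 rose (57.1%, against 8.64% of all tested genes) and none fell, with summed levels of 629 and 393 CPM in Trim28 KO, against 242 and 252 CPM in WT. Of the defining markers, Adgre1 had 21.01 and 14.1 CPM in Trim28 KO, against 6.11 and 7.02 CPM in WT, and rose (1.42 ± 0.23), whereas Csf1r (0.46 ± 0.19, adjusted p = 0.0896) and Cd68 (0.33 ± 0.22, adjusted p = 0.347) were not called. Without Trim28 KO 1, fewer macrophage markers were called higher, from a fit with 1 library left in that genotype. The sum was higher in Trim28 KO 1 than in Trim28 KO 2, as were Cx3cr1, Ccl12, Ccl3, Ccl4 and Pf4, and the part of these cells in those values was not tested. Per Csf1r count, Cx3cr1 stood at 0.427 and 0.359 in Trim28 KO, against 0.127 and 0.158 in WT, while Ccr1 stood at 0.109 and 0.0794 in Trim28 KO, against 0.0953 and 0.0931 in WT. These ratios depend on the marker chosen. Log2 fold changes of the tested macrophage markers ran from -0.40 (Cd163) to 2.19 (C1qa), with a median of 1.07. Csf1r, at 0.46, lay below that median, and Cx3cr1, at 1.94, lay inside the range.

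Osteoclast markers ran the other way. Of 10 tested (11 listed), 9 fell (90%, against 8.77% of all tested genes) and none rose, with summed levels of 290.1 and 309.7 CPM in Trim28 KO, against 1166 and 986 CPM in WT. The defining markers Acp5 (7.78 and 6.92 CPM in Trim28 KO, against 40.15 and 40.05 CPM in WT), Ctsk (-0.75 ± 0.20) and Ocstamp (-2.56 ± 0.39) were among them, and their part in the fall of Ccl9 was not tested. Of 15 endothelial markers, Vwf (-0.95 ± 0.21) and Prox1 (-1.73 ± 0.38), a gene of lymphatic vessels, fell and none rose, both named after their values were seen. That is 13.3% of the list, near the 17.4% of all tested genes that were called. The list had sums of 660 and 746 CPM in Trim28 KO, against 936 and 729 CPM in WT. Pecam1, Cdh5 and Tek, the defining markers, were not called. Their part in the values of Ackr4 and Cx3cl1 was not tested.

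The marker lists of other blood cells did not move alike. The 15 lymphocyte markers summed to 3.30 and 2.41 CPM in Trim28 KO, against 3.19 and 5.71 CPM in WT, with 0 of the 3 tested called and the defining marker Ncr1 at 0 in all libraries. The 8 mast cell markers summed to 10.9 and 7.48 CPM in Trim28 KO, against 9.82 and 14.3 CPM in WT, and 0 of 6 were called. Erythroid markers fell in 6 of 8 tested (75%, against 8.77% of all tested genes), with sums of 139 and 198 CPM in Trim28 KO, against 398 and 480.4 CPM in WT. Of the 8 megakaryocyte and platelet markers, 2 were tested. Pf4, with 344 and 186 counts in Trim28 KO, against 91 and 122 in WT, was called higher. Itga2b, with 62 and 55 counts in Trim28 KO, against 105 and 82 in WT, was not called (-0.71 ± 0.30, adjusted p = 0.115). The other defining markers, Gp1bb and Gp9, had 0 to 2 counts in every library. Skeletal muscle markers summed to 1360 and 534 CPM in Trim28 KO, against 695 and 903 CPM in WT. Of the 10, 1 was called higher and 1 lower (10% each), near the 8.64% and 8.77% of all tested genes.

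**Figure D5:**
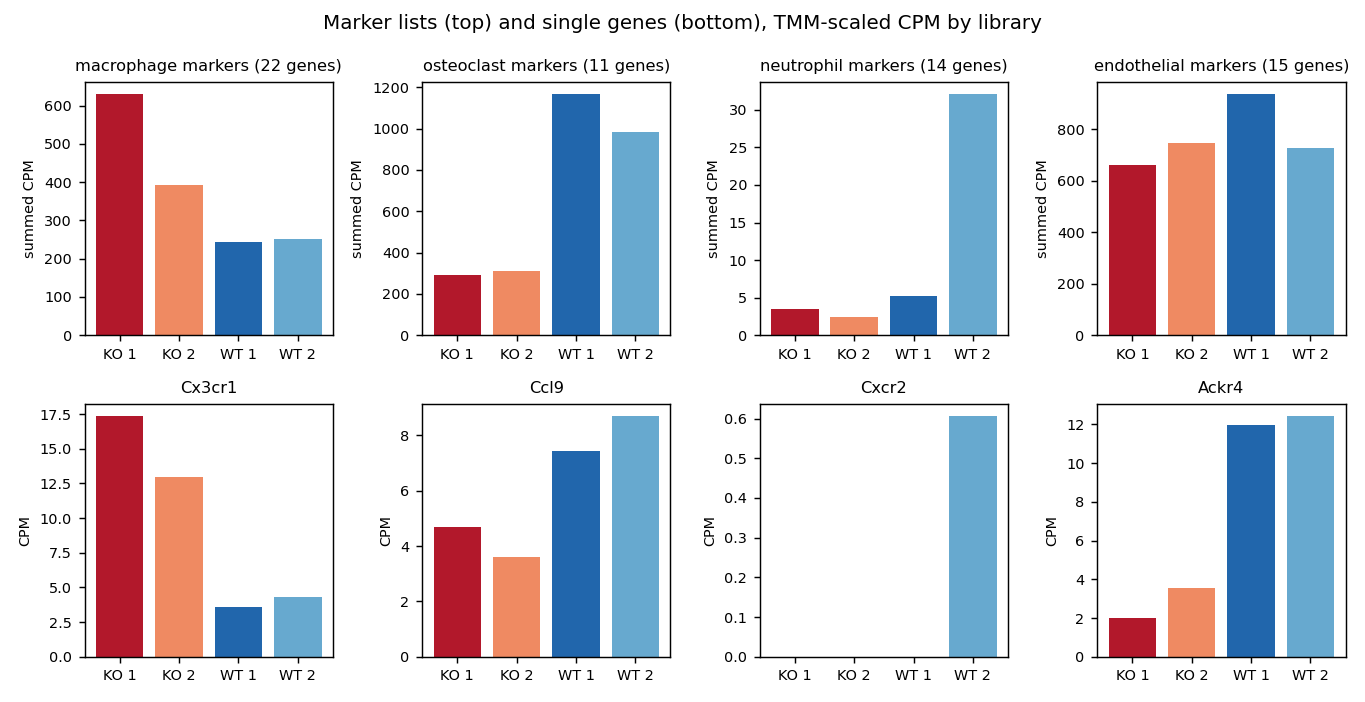
Summed CPM of 4 marker lists (top row) and CPM of 4 single genes (bottom row) in each library, all axes starting at 0. Macrophage markers and Cx3cr1 are highest in Trim28 KO 1, osteoclast markers and Ccl9 are higher in both WT libraries, neutrophil markers and Cxcr2 peak in WT 2, and endothelial markers overlap between genotypes while Ackr4 does not.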

How the data were processed

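Per the labels' protocols, total RNA was extracted with Trizol and libraries were made by an Illumina protocol. The table the authors deposited holds raw counts, which featureCounts made from paired-end fragments over exons, summed by gene name on GENCODE M23 of mm10, per the file headers; strand, multi-mapping and multi-gene options were not set there. The submitters' processing notes name featureCounts 1.6.4 of Subread 1.6.4; an aligner is not given in the sources used here. The exon length per gene is a further column.

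Genes were kept by filterByExpr (edgeR 4.0.16, limma 3.58.1, R 4.3.3), scaled by TMM and tested, Trim28 KO over WT with no covariate, by edgeR's quasi-likelihood test with robust dispersions. Benjamini-Hochberg adjustment ran over all 16639 genes, with calls under 0.05. The standard error is the log2 fold change divided by the square root of F, and intervals use the fitted degrees of freedom. The biological coefficient of variation was 16.3%. Within a genotype, libraries differed beyond sampling noise, with 24.6 (Trim28 KO) and 30.6 (WT) chi-square units per degree of freedom. Tested on simulated data over 16334 genes, the fit called 52.5% of genes changed 2-fold and 90.7% of those changed 4-fold, with 12 of 152 calls false. The simulation changed 200 genes drawn from all levels and took its dispersions from the fit. Its shares therefore do not give the power for family genes with few counts.

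The genes and lists were chosen with earlier results of these data known. Family genes with at least 20 counts are described, and of partner and cytokine lists the called genes and those with the smallest p-values are named; some of these genes are not reported here by name but stay in the counts. Positions are from GENCODE M21 on GRCm38, which matched all 31 described names. Alternatives were RLE factors, library size alone, no filter, 5 CPM in 2 libraries, DESeq2 1.42.0, limma-voom, a replicate block and leaving out each library.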

Additional observations from a re-analysis of the deposited data

How the results depend on the processing

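All 12 called family genes kept their sign under the alternatives that tested them, and 5 (Cxcl12, Cxcl16, Cx3cr1, Ccl12 and Ackr4) kept their call in each. The family counts, 7 higher and 5 lower, were 5 and 3 by DESeq2 and 4 higher with the stricter filter, which tested fewer genes. The calls lost by DESeq2 included those of Ccl4 (adjusted p = 0.0587), Ccl9 (0.0581) and Cxcl1 (0.153). Leaving out 1 library gave 4 to 7 higher and 2 to 4 lower. Over all genes, DESeq2 called 946 lower (1460 in the report), and leaving out 1 library gave 702 to 1442 higher and 572 to 1406 lower. Partner genes called lower numbered 3 with library size alone and by DESeq2. Leaving out 1 library gave 3 to 10 partner genes higher and 2 to 3 lower. Inflammatory genes called higher, 1 in the report, numbered 4 with library size alone, 5 with no filter, 2 by DESeq2, 2 by limma-voom and 3 with the replicate block. With 1 library left out they were 0 to 5 higher and 2 to 4 lower. The causes of these shifts were not tested. The genes whose sign changed were not called, and with 1 library left out their log2 fold changes ran from -0.11 to 1.03 for Ccl6, -0.83 to 0.10 for Ccl11, -0.072 to 1.07 for Cxcl10, -0.96 to 0.28 for Ccr2 and -0.18 to 0.059 for Cxcr4 (0.011 without Trim28 KO 2).

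The replicate numbers were not shown to pair the samples (correlation of deviations -0.095), and with the replicate block 7 family genes were called higher and 5 lower. Of the 23 family genes with 1 to 13 counts, the fit with no filter called 2, and DESeq2 gave no adjusted p for any.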
